A study of Mus musculus with 2 samples.

Results

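Long noncoding RNA (lncRNA) genes are transcribed like protein-coding genes but give RNAs that are not translated. Here their promoter peaks were examined in DNase-seq of mouse spleen, an assay in which DNase I cuts open chromatin and the cut ends are sequenced. A peak was a member if it lay within 1 kb of a start site of a lincRNA, antisense or processed_transcript gene in the GENCODE M21 annotation of mm10 and over 5 kb from every protein-coding start site. Distances run from the nearest edge of the peak. This gave 960 of 48286 peaks in replicate 1 and 519 of 28837 in replicate 2 (mean 739.5 ± 312, SD, n = 2). Merged across the libraries they formed 985 sites, of which 477 had a peak in both, 469 in replicate 1 alone and 39 in replicate 2 alone. The nearest lncRNA genes numbered 743. The rule used the position of a peak and none of its values.

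The series held 1 group, whole spleen of 14-day-old males of B6CASTF1/J, an F1 hybrid strain, with 2 biological replicates of 1 library each. Replicate 1 pooled 3 males and replicate 2 was 1 male. A single donor entry is given for the 2 of them. With 1 group there was no contrast to test, and peaks of 1 library are not replicates, so every comparison below is a description given for each library. Among marker genes, 5 of 6 B cell, 6 of 7 red cell and 3 of 4 T cell genes had a promoter peak in both libraries, against 1 of 4 macrophage, 1 of 4 spleen stroma, 1 of 4 pancreas, 2 of 3 nerve, 1 of 3 muscle and 0 of 3 liver genes. Of all 21938 protein-coding genes, 51.1% had a promoter peak in both. The stromal genes Tlx1, Nkx2-5 and Ccl21a, the macrophage genes Spic, Csf1r and Adgre1 and the T cell gene Cd3e had none. More lncRNA, protein-coding promoter and distal peaks were called in replicate 1. The sequencing depth of the libraries is unknown here. In whole tissue, a site open in few cells and a site weakly open in many cannot be told apart.

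Some lncRNAs act as RNAs in the nucleus, as Malat1 and Neat1 do in nuclear bodies. Others host small RNAs in their introns, as the small nucleolar RNA host genes (Snhg) do. For some, such as Kcnq1ot1, transcription across a domain silences neighbouring genes on the same chromosome copy. Promoters rich in CpG, the base pair step at which DNA is methylated, are common at genes active in many tissues.

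The sequences of 9 strong peaks of replicate 1 are printed here, from CpG-rich promoters to CpG-poor sites. Each had a signal of 4.88 or more in the authors' list, above the upper quartile of members (2.85). Of the members of replicate 1, 75.9% were CpG-poor, so the 9 do not show a typical member. Each was read from the GRCm38 (mm10) reference genome of RefSeq and is written 5′ to 3′ on the strand of its lncRNA. Capitals mark bases inside a DNase footprint of both libraries, a short stretch that the authors called as shielded from cutting.
1810026B05Rik (Chaserr), chr7:73558501-73558800, minus strand: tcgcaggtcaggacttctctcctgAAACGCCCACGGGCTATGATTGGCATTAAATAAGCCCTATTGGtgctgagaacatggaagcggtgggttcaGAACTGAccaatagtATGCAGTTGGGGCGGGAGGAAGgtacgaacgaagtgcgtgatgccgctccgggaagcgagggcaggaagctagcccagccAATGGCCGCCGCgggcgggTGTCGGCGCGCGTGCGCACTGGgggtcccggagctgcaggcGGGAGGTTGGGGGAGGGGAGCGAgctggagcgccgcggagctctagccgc
Snhg8, chr3:123508361-123508600, minus strand: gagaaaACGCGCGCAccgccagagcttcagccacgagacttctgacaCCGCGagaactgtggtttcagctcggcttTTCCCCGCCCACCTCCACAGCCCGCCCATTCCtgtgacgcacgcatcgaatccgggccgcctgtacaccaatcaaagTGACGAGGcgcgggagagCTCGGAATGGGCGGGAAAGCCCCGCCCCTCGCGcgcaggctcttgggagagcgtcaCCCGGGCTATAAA
Tmem250-ps, chr2:26140501-26140700, minus strand: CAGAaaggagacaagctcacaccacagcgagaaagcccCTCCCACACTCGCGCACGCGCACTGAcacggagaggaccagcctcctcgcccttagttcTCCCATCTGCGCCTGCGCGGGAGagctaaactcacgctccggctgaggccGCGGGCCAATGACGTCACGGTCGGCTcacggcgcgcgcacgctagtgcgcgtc
Snhg15, chr11:6528741-6528960, minus strand: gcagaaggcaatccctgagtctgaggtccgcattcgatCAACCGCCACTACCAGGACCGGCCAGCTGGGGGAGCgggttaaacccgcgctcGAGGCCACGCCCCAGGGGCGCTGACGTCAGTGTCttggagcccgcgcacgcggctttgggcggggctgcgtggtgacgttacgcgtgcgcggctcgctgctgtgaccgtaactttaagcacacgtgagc
Dleu2, chr14:61648741-61649020, minus strand: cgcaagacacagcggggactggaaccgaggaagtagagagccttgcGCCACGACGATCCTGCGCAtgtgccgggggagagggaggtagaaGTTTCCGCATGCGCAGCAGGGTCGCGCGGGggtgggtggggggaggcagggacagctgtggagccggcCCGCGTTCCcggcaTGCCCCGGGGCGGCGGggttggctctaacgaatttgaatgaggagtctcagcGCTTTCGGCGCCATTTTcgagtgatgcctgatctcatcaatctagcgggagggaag
Malat1, strongest peak, chr19:5803561-5803680, minus strand: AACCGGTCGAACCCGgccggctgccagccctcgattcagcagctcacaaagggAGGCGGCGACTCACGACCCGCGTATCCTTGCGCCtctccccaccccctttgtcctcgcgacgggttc
Malat1, peak over the annotated start, chr19:5802601-5802780, minus strand: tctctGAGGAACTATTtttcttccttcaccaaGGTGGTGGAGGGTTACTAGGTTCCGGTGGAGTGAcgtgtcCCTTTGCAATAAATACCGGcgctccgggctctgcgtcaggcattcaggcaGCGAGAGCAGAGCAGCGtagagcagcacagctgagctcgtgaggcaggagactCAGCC
2310001H17Rik, chr6:129237961-129238180, minus strand: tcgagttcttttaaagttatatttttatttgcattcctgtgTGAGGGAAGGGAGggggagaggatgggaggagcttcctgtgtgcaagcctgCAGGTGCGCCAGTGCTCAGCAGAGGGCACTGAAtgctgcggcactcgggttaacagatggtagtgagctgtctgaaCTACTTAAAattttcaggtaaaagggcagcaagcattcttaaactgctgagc
Gm43121, chr3:100438481-100438740, plus strand: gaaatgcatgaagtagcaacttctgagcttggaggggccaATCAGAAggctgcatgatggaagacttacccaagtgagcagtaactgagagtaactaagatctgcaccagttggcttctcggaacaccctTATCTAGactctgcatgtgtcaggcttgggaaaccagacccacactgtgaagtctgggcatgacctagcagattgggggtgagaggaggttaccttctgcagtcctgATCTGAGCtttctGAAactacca

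The 8-base cyclic AMP response element word TGACGTCA stood whole inside shared footprints at Tmem250-ps (bases 157 to 164) and at Snhg15 (bases 113 to 120). At Tmem250-ps its first base is also the last base of a CCAAT word. The NRF1 word CGCATGCG stood whole in a shared footprint at Dleu2 (bases 96 to 103). Snhg8 carried 4 matches to the GC box word GGGCGG on either strand, and all 4 were whole inside shared footprints. Its last 6 bases were the TATA box word TATAAA, again whole inside a shared footprint. In 1810026B05Rik, 2 of 4 CCAAT words and 1 of 2 GC boxes were whole inside shared footprints. No whole match to any of the 11 words searched, or to the CTCF consensus, was found in either Malat1 peak or in the 2310001H17Rik peak. In Gm43121 a GATA word, here TTATCT on the strand shown, had 5 of its 6 bases in capitals. A match is a description of letters and not of a bound factor. How often each word occurs in other peaks is given further on.

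Peak signal, the value per peak in the authors' lists, had a median a little below that of all peaks and a wide spread. The sources used here give no scale for it. The median was 1.44 in replicate 1 (quartiles 0.848 and 2.85) and 1.64 in replicate 2 (quartiles 1.02 and 2.94). Over all peaks the medians were 1.49 and 1.79. The ratio to all peaks was thus 0.969 and 0.918 (mean 0.944 ± 0.0359, SD, n = 2). Peaks within 1000 bases of a protein-coding start site were higher, with medians of 2.91 and 2.81. Distal peaks, over 5000 bases from protein-coding and over 1000 bases from lncRNA start sites, were lower at 1.10 and 1.24. The median width of the lncRNA peaks was 200 and 190 bases.

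CpG-rich lncRNA promoter peaks had the higher signal. A peak was called CpG-rich where the 300 bases around its centre had at least 50% G and C and an observed to expected CpG ratio of at least 0.6. In replicate 1, 231 of the 960 lncRNA peaks were CpG-rich (24.1%), against a background of 32.3% of all peaks. In replicate 2 it was 189 of 519 (36.4%), against 49.1%. Of protein-coding promoter peaks 66.7% and 77.5% were CpG-rich, and of distal peaks 4.66% and 8.43%. CpG-rich lncRNA peaks had a median signal of 3.11 and 2.83, CpG-poor ones 1.23 and 1.32. Within each CpG class the lncRNA peaks lay between the other classes in both libraries. CpG-rich protein-coding promoter peaks had medians of 4.98 and 3.57 and CpG-rich distal peaks 1.85 and 1.93. CpG-poor protein-coding promoter peaks had medians of 1.45 and 1.53 and CpG-poor distal peaks 1.08 and 1.21.

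**Figure D1:**
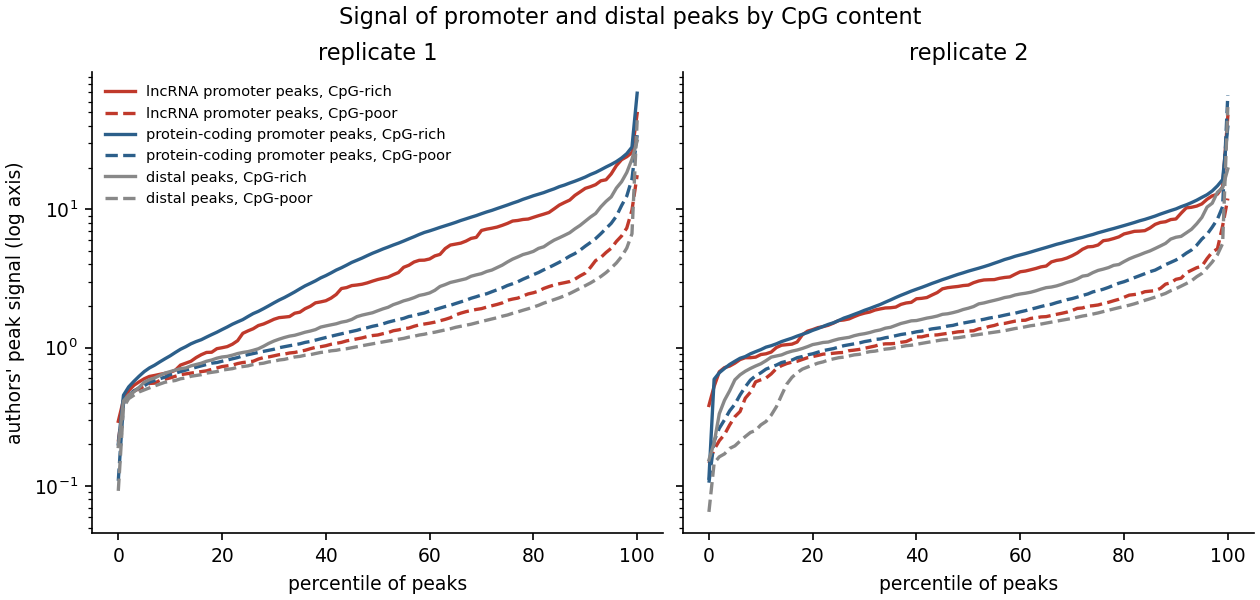
Authors' peak signal (log axis) against the percentile of peaks, for each replicate, with classes in colour, CpG-rich peaks as solid lines and CpG-poor peaks as dashed lines. At the median, the lncRNA lines lie between the protein-coding and the distal lines of the same CpG class, at 3.11 and 2.83 for CpG-rich and 1.23 and 1.32 for CpG-poor lncRNA peaks.

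Peaks over the start site itself were the stronger ones. A start site was covered by 322 lncRNA peaks in replicate 1 (33.5%) and by 186 in replicate 2 (35.8%), against 55.0% and 60.5% of protein-coding promoter peaks. The median signal of the covering lncRNA peaks was 1.92 and 2.18, and that of those 1 to 1000 bases away was 1.31 and 1.44. The 107 and 91 lncRNA peaks that were CpG-rich and covered a start site had medians of 4.67 and 3.54 and held 4.34 and 4.19 footprints on average. The same kind of peak at protein-coding genes had medians of 6.96 and 4.64. The 514 and 235 lncRNA peaks that were CpG-poor and away from the start site had medians of 1.20 and 1.26. All peaks away from a start site, 638 (66.5%) and 333 (64.2%), were members by distance alone.

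**Figure D2:**
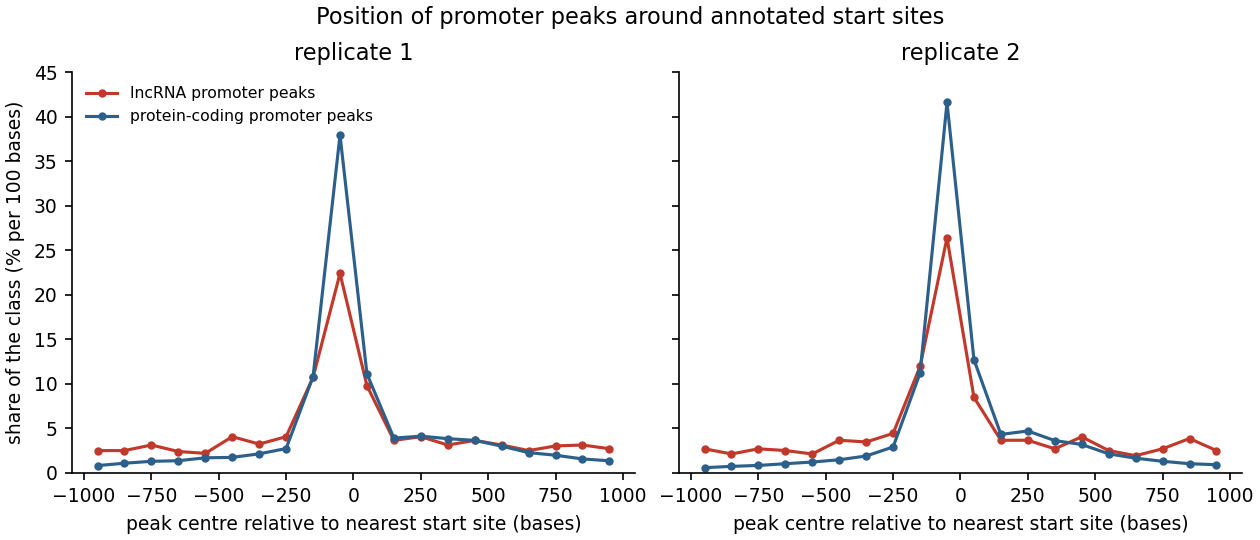
Share of each class of promoter peak (percent per 100 bases) by the position of the peak centre relative to the nearest annotated start site, upstream to the left, for each replicate. Both classes peak just upstream of the start; 32.2% and 34.9% of lncRNA peak centres lie within 100 bases of a start site, against 49.1% and 54.4% for protein-coding genes, and the lncRNA line is higher in the outer parts of the window.

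The centres lay mostly upstream, at 59.2% and 62.6% of lncRNA peaks, with a median offset of -44 and -50 bases. For protein-coding promoter peaks the offset was -35 and -36 bases. By the annotation of protein-coding genes, 84.3% and 88.2% of the lncRNA peaks were intergenic, 11.8% and 8.48% lay in an intron and 3.96% and 3.28% in an exon. The median signal was lower farther from protein-coding start sites. It was 1.88 and 2.26 for peaks over 5 to 10 kb away, 1.59 and 1.76 at 10 to 50 kb, and 1.13 and 1.27 beyond 50 kb. The share of CpG-rich peaks was 31.5%, 23.2% and 22.0% over these distances in replicate 1 and 49.4%, 34.2% and 32.9% in replicate 2, and its part in the difference was not tested.

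The 3 gene types are given in turn. Peaks of processed_transcript genes (138 and 91) had a median signal of 1.97 and 1.94 and were CpG-rich in 42.0% and 60.4% of cases. Peaks of lincRNA genes (649 and 353) had medians of 1.40 and 1.57, with 22.0% and 30.6% CpG-rich. Peaks of antisense genes (173 and 75) had medians of 1.33 and 1.67, with 17.3% and 34.7% CpG-rich. Some members also lay near other noncoding genes. Within 1000 bases of a start site of another type were 71 (7.40%) and 54 (10.4%) members, among them 13 and 9 near small nucleolar RNA genes.

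Most lncRNA genes far from protein-coding start sites had no member peak. Of 9603 genes of the 3 types, 6870 had a start site over 6 kb from every protein-coding start site, so that a peak over it was a member. Of these, 397 (5.78%) had a member peak in both libraries, 346 in replicate 1 alone, 10 in replicate 2 alone and 6117 in neither. The 6117 include genes such as Crnde, whose peak lay too near a protein-coding start site to be a member. For protein-coding genes the share with a promoter peak in both was 51.1%. That share covers all 21938 such genes with no rule on distance to other genes, so the sets compared are unlike. By type the share was 16.99% for processed_transcript genes (70 of 412), 5.37% for lincRNA genes (275 of 5117) and 3.88% for antisense genes (52 of 1341). Bases that the authors list at a false discovery rate under 0.05 were then sought within 1000 bases of the start. Of the lncRNA genes among the 6870 with no member peak, 4.81% and 3.90% had them. For protein-coding genes with no peak this was 13.2% and 13.9%. At 0.001 or less, 31 (0.506%) and 30 (0.464%) such lncRNA genes had listed bases, against 1.22% and 1.17% of such protein-coding genes.

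The 10 lncRNA sites with the highest mean signal were all CpG-rich in both libraries. First stood Gm42418 (chr17:39846781-39846900) with 49.2 in replicate 1 and 46.9 in replicate 2. Its 31-base words occur in 2 copies on the assembled chromosomes of mm10, so reads from more than 1 place could add up there. Copies outside these chromosomes were not counted, so the true number could be higher. Its log2 ratio of replicate 1 to replicate 2 was 0.07, against 0.49 to 1.03 at the other 9. The next were 1700096K18Rik with 29.0 and 14.3, Tmem250-ps with 22.8 and 16.2 and Malat1 with 25.02 and 13.64. Chaserr (1810026B05Rik in the annotation), which in mouse limits expression of its neighbour Chd2, had 25.8 and 12.6. The others were 6720427I07Rik with 25.3 and 12.5, Gm12915, in an exon of Inpp5b, with 23.1 and 12.5, Snhg8 with 23.2 and 11.6, 1700028E10Rik with 21.4 and 10.6 and 1700012D14Rik with 20.98 and 10.34. Of the 985 sites, 31 were made of sequence in more than 1 copy, and 18 of these had a peak in both libraries. By library, 2.40% and 3.66% of member peaks were such sequence, against 1.54% and 1.95% of all peaks.

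Named lncRNAs were grouped into 5 lists. Of 79 genes, 52 had a start site over 6 kb from every protein-coding one, 22 were nearer, 3 had another gene type and 2 were not matched in the annotation. Of the 52, 31 had a member peak, 26 in both libraries and 5 in replicate 1 alone. The lists were chosen by name among well-studied lncRNAs, so their share cannot be set directly against the 5.78% of all such genes.

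Host genes of small RNAs had a member peak at 13 of 16 far genes, at 12 of them in both libraries. The Snhg genes carry small nucleolar RNAs, which guide the chemical modification of ribosomal RNA, in their introns. Snhg8 was the highest. Snhg15 had a signal of 14.29 and 12.03, Snhg16 (1810032O08Rik) 14.6 and 10.3, and Snhg5 14.5 and 8.43. Lower values were found at Snhg12 with 7.29 and 3.86, Snhg6 with 7.08 and 4.16, Snhg20 with 4.599 and 2.69 and Snhg17 with 3.01 and 1.90. The strongest peak of each of these 8 genes was CpG-rich in both libraries, and it covered a start site except at Snhg5 in replicate 1 (72 bases away) and Snhg15 in replicate 2 (1 base away). Among microRNA hosts, Mir17hg, host of the Mir17 cluster that promotes growth of blood cells, had 3.45 and 2.76. Mir670hg had 4.004 and 2.407, Mir100hg (3110039I08Rik) 1.16 and 1.21, and Mir155hg, host of a microRNA known from activated B cells, 0.932 and 0.773. Mir99ahg had 0.436 in replicate 1 alone. Snhg14, Mir124a-1hg and Mir9-3hg had no peak.

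The distance limit decided what is seen of Mir142hg, host of a microRNA of blood cells, whose farthest start site lies 4964 bases from a protein-coding one and which is not counted among the far genes. Its member peak, 697 bases from the start in replicate 2, had 5.21 and 2.10 and was CpG-poor. Its peak over the start site had 15.6 and 7.69, but lay 4901 bases from the start of Tspoap1 in replicate 2, inside the 5000-base limit. In the same way Snhg1, Snhg3, Snhg9, Snhg10, Gas5 and Mir22hg, all with a peak within 1000 bases of the start in both libraries, were left out as too near. The nearest members on the other side of that limit were at 2410080I02Rik, 5006 bases from the start of Klf9 in replicate 2 with 1.94, and at Gm26841, 5022 bases from that of H13 with 5.57 and 4.89. At the 1000-base limit, Gm34256 was just inside with 1.30 in replicate 1, and Gm49477 just outside with 0.755.

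Widely expressed lncRNAs had member peaks in both libraries at 9 of 11 far genes. Tug1 and Epb41l4aos were nearer to a protein-coding start site. Their peaks of 13.2 and 6.42 and of 4.32 and 4.27 were not members. Malat1 had 3 sites. The one over the annotated start had 15.1 and 10.8, the middle one 5.51 and 3.39, and the upstream one, 889 bases from the start and only 120 bases wide, was the highest at 25.02 and 13.64. The upstream and middle peaks were CpG-rich. The peak over the start was not, through its GC content of 47.7% and 46%, while its CpG ratio of 0.777 and 0.833 was above the limit. Neat1, the scaffold of paraspeckles, had its strongest site upstream of its start and 158 bases from that of Frmd8os, at 13.2 and 8.15, and the site over its start had 5.88 and 3.16. Oip5os1 (1700020I14Rik), which in mouse lowers the microRNA miR-7, had 14.6 and 8.10. Dancr had 9.23 and 4.68, Lncpint, a p53 target, 4.15 and 2.27, and Norad (2900097C17Rik), which binds Pumilio proteins, 2.18 and 1.49. Firre was lowest with 0.671 and 0.488. Pvt1, the neighbour of Myc, had 0.965 and 1.59 and was among the few sites higher in replicate 2. Miat had no peak. Crnde had no member peak, and its peak of 7.39 and 3.43 was too near a protein-coding start site.

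Of lncRNAs of imprinting and X inactivation, 6 of 10 far genes had a member peak. Nespas, nearer to a protein-coding start site, had a peak of 3.10 and 2.17 that was not a member. Peg13, of another gene type, had one of 3.94 and 2.72. Kcnq1ot1, expressed from the paternal copy, had 7.51 and 2.94 at its start. On the X chromosome, Ftx had 4 sites with up to 8.502 and 4.270, Jpx, an activator of Xist, 1.45 and 1.04, and Tsix, the antisense of Xist, 0.638 and 0.439. Xist itself, which coats the inactive X of female cells, had no peak in these male samples. Airn had 0.898 and Meg3 0.688 in replicate 1 alone. H19, Rian and Mirg had none.

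Of the blood and immune list, 3 of 5 far genes had a member peak. Among the 5 nearer genes, Flicr had a peak of 11.2 and 4.77 that was not a member. Ttc39aos1 had 2.47 and Hotairm1 1.18 in replicate 1 alone, and Ptgs2os and Mirt2 had none. Dleu2, host of the Mir15a and Mir16-1 pair deleted in human B cell leukaemia, was the only far gene with a member peak in both libraries. Dleu2 has 15 annotated transcripts, and each start adds a window in which a peak can be a member. It had the most member peaks of any lncRNA gene, 8 and 6, in 7 sites. They lay in a group of 3 sites and, farther upstream, a group of 4. The first group held the highest, chr14:61648741-61649020, with 13.5 and 8.46, and the second reached 7.23 and 4.52. Morrbid (Gm14005), known in mouse from short-lived myeloid cells, had 0.789 and Lncenc1, better known from mouse embryonic stem cells, 0.730 in replicate 1 alone. None of the 10 far genes known from the development of other tissues, Hotair and Sox2ot among them, had a member peak in either library. Of all 6870 far lncRNA genes, 6117 had none either, so 0 of 10 does not set this list apart.

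**Figure D3:**
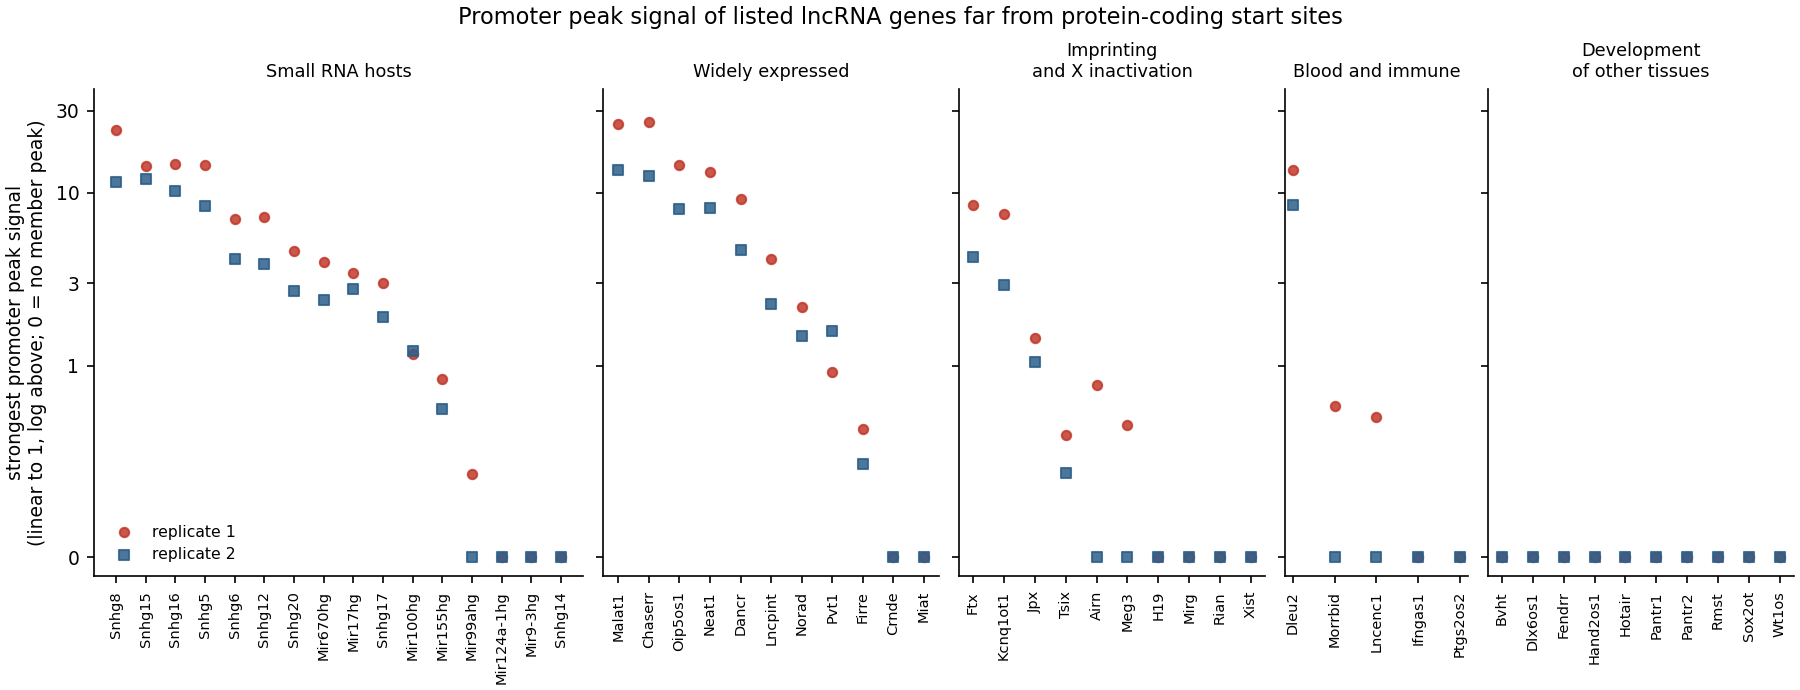
Signal of the strongest member peak for the 52 listed lncRNA genes far from protein-coding start sites, in replicate 1 (red circles) and replicate 2 (blue squares). The axis is linear up to 1 and logarithmic above, and 0 means no member peak. Widely expressed lncRNAs reach 25.8 and host genes of small RNAs 23.2. All 10 genes of the last panel lie at 0. Of all 6870 far lncRNA genes, 6117 also had no member peak in either library.

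Other genes with many member peaks had a mean of 4 per library, a tie of 4 genes. At 2310001H17Rik, 36786 to 42206 bases from the start of Cd69, 6 peaks were called in replicate 1 and 2 in replicate 2, none CpG-rich. The strongest, over a start site and printed above, had 7.31 and 3.48. A second had 2.53 and 1.71, and the other 4, with 1.06 to 3.87 in replicate 1, had no peak in replicate 2. The lncRNA 2410080I02Rik had 4 peaks in each library, from 1.66 to 3.28 and from 1.05 to 1.94. Frmd8os had 6 and 2, and Ftx 4 and 4. The single peaks with the most footprints were at Gm20559 with 11 in replicate 1, where replicate 2 had no peak, and at Gm44066 and 9530027J09Rik with 10 each in replicate 2. A few members overlapped another of the same list, 13 in replicate 1 and 6 in replicate 2. Lockd, a lncRNA beside Cdkn1b that has been studied in mouse red cell precursors, had one of the widest sites, with peaks over 420 and 640 bases and a signal of 4.98 and 2.81.

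Footprints were frequent in the lncRNA peaks. At least 1 was present in 867 peaks of replicate 1 (90.3%), against 89.5% of all peaks, and in 485 of replicate 2 (93.4%), against 88.4%. The mean number was 2.79 and 3.00 per peak. Over all peaks it was 2.86 and 3.01. The share with a footprint was close to that of all peaks.

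The replicates shared the stronger lncRNA peaks. Of the 960 members of replicate 1, 485 (50.5%) overlapped a peak of replicate 2 by at least 1 base, against 53.1% of all peaks. Of the 519 members of replicate 2, 478 (92.1%) overlapped one of replicate 1, against 89.1%. The median signal of shared members was 2.80 and 1.76, that of members in 1 library alone 0.890 and 0.358. In replicate 1, 79.2% of the CpG-rich and 41.4% of the CpG-poor members were shared. In replicate 2 it was 95.8% and 90%. Of the 475 members found in replicate 1 alone, 201 (42.3%) overlapped a peak of the authors' larger list of replicate 2. Of the 41 found in replicate 2 alone, 4 (9.76%) overlapped a peak of the larger list of replicate 1. The same shares over all peaks are not given here. The strongest member found in replicate 1 alone was at 2310001H17Rik with 3.87, and the larger list had a peak of 0.976 there in replicate 2. Gm16214 had 2.90 in replicate 1 and no peak in either list of replicate 2. In replicate 2 alone the strongest were Gm15247 with 2.26 and Gm15726 with 1.71. Both lie in exons of Mid1 on the X chromosome in sequence with 2 copies.

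At shared members, signal was mostly higher in replicate 1, at 442 of 485 (91.1%), against 88.5% of all shared peaks, 95.1% of protein-coding promoter peaks and 76.9% of distal peaks. The median ratio was 1.58, which is 0.66 on the log2 scale. It was 0.57 for all shared peaks, 0.64 for protein-coding promoter peaks and 0.36 for distal peaks. A difference of 0.086 from all peaks has no replicate check, and whether both libraries are on one scale is not stated. The highest ratios were at Gm43121, 50374 bases from the start of Tent5c, with 4.88 and 1.32 (log2 ratio 1.89), Gm47918 with 3.29 and 0.895 (1.88) and Gm31452 with 4.599 and 1.31 (1.81). All were CpG-poor. The lowest were at Gm28548 with 0.781 and 1.37 (-0.81), Pvt1 (-0.72) and Gm28836 with 1.14 and 1.64 (-0.53). The Gm28548 site is wholly repeat sequence whose 31-base words have a median of 204648 copies in mm10.

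**Figure D4:**
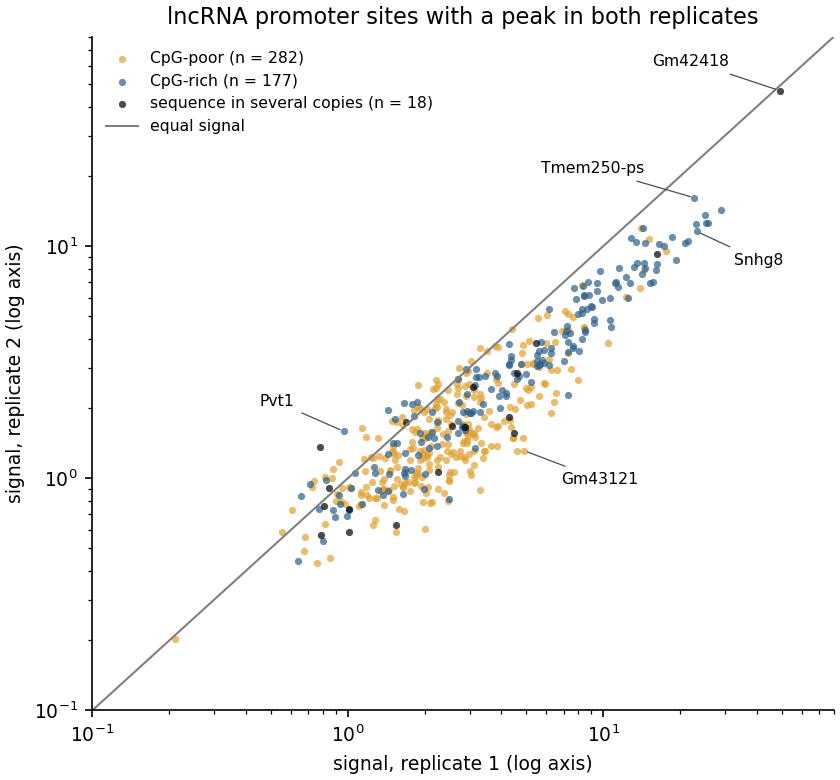
Signal in replicate 1 against signal in replicate 2 (log axes) for the 477 lncRNA promoter sites with a peak in both, coloured by CpG content (CpG-rich in at least 1 library) or by sequence in several copies, with the line of equal signal. Most sites lie below the line, the CpG-rich ones reach the highest values, Gm42418 lies near the line at 49.2 and 46.9, and Pvt1 lies above it.

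Motif words were set beside CpG content, with no test. Each of 11 words and the CTCF consensus was searched on both strands in the 300 bases around the peak centre. The GC box GGGCGG, a word bound by Sp factors, was in 68.4% and 71.4% of the CpG-rich lncRNA peaks and in 17.01% and 22.12% of the CpG-poor ones. It was in 59.9% and 67.0% of protein-coding promoter peaks, 14.0% and 16.8% of distal peaks and 34.5% and 46.5% of all peaks. CpG content and this word are not independent, since the word holds a CG. The ETS word CCGGAAG was in 7.5% and 9.83% of lncRNA peaks, 13.9% and 16.3% of protein-coding promoter peaks and 8.06% and 11.0% of all peaks. The response element TGACGTCA, which also holds a CG, was in 1.88% and 2.70% of lncRNA peaks, 2.55% and 2.95% of protein-coding promoter peaks and 1.42% and 2.00% of all peaks. Of CpG-rich lncRNA peaks 4.76% and 5.82% had it, 11 peaks in each library, and of CpG-poor ones 0.960% and 0.909%. The NRF1 word CGCATGCG was in 1.88% and 2.50% of lncRNA peaks, 2.79% and 3.35% of protein-coding promoter peaks and 1.45% and 2.22% of all peaks. Of CpG-rich lncRNA peaks 4.76% and 5.29% had it, 11 and 10 peaks.

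GATA, PU.1, RUNX, AP-1 and CTCF matches were more frequent in the CpG-poor than in the CpG-rich lncRNA peaks. The GATA word AGATAA, bound by the red cell factor Gata1, was in 12.8% and 13.0% of CpG-poor and 6.49% and 3.17% of CpG-rich lncRNA peaks, against 12.1% and 8.23% of all peaks and 16.9% and 13.7% of distal peaks. The PU.1 word GAGGAAGT, of a factor of B and myeloid cells, was in 8.37% and 6.67% of CpG-poor and 2.60% and 2.12% of CpG-rich lncRNA peaks, against 5.196% and 3.218% of all peaks. The RUNX word TGTGGT was in 25.9% and 17.3% against 11.7% and 10.1%, in 20.6% and 16.3% of all peaks and in 27.0% and 24.5% of distal peaks. The AP-1 word TGANTCA was in 9.19% and 8.79% against 4.76% and 4.76%, and in 7.38% and 5.71% of all peaks. The CTCF motif was in 3.02% and 4.05% of lncRNA peaks, against 4.79% and 5.33% of all peaks and 7.54% and 11.0% of distal peaks. It was in 3.57% and 5.45% of CpG-poor and 1.30% and 1.59% of CpG-rich lncRNA peaks, the latter 3 peaks in each library. CCAAT was in 31.8% and 31.2% of lncRNA peaks and in 29.97% and 30.73% of all peaks. The TATA box TATAAA was in 7.29% and 6.17% of lncRNA peaks and in 7.62% and 5.70% of all peaks. The YY1 word AAGATGGC was in 1.77% and 2.12% of lncRNA peaks, against 4.02% and 4.85% of protein-coding promoter peaks and 2.90% and 3.72% of all peaks.

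**Figure D5:**
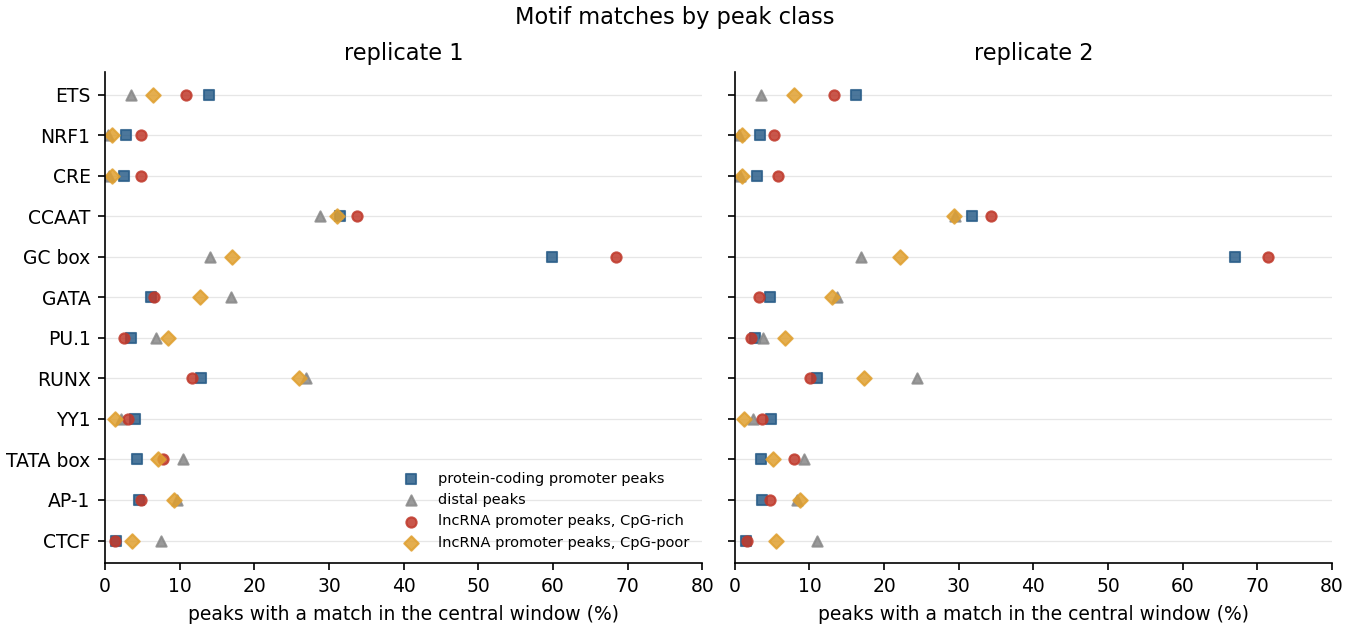
Share of peaks (percent) with a match to each of 12 motifs in the central 300 bases, for each replicate, in CpG-rich and CpG-poor lncRNA promoter peaks, protein-coding promoter peaks and distal peaks. CpG-rich lncRNA peaks lie near protein-coding promoter peaks for the GC box (68.4% and 71.4%), and for GATA, PU.1, RUNX and AP-1 the CpG-poor lncRNA peaks lie to the right of the CpG-rich ones.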

How the data were processed

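DNase-seq libraries were aligned to mm10, per the labels, and the authors called peaks, false discovery rates and footprints for each library separately. The sources used here name no aligner, caller or version. The deposited signal value of a peak is the authors' own and its scale is not stated. The deposited false discovery rate, a p-value type of unit, lists runs of bases under 0.05. The other deposited value, the score of the authors' footprints, is 1 constant, so only positions were used. Of the 2 deposited peak lists per library the one with fewer bases was used (9.46 and 5.72 Mb). Depth is not given, so no counting interval can be had.

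Start sites of all transcripts in GENCODE M21 were used. CpG content, motifs and footprints were read in or around each peak, and sequence copies as the median genome count of 31-base words. Named are the strongest, widest, most footprinted and most different sites and every listed gene, by rule. Any other gene was picked with its values in view. The members, lists and rules were chosen with earlier results of these data known. Replicates were numbered by the labels. Alternatives covered the larger lists, the windows, distances, start site definition, overlap, repeats, copies and leaving out each replicate. Steps were tested on simulated data. Python 3.11.15, numpy 2.4.6 and pandas 2.3.3 were used.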

Additional observations from a re-analysis of the deposited data

How the results depend on the processing

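Under settings other than leaving out a library, 63 recomputed values of the main results stayed within the spread between the replicates or, for ratios and counts, within 0.1 log2 or 1.5-fold, and 4 did not. For the motif shares it was 99 and 9. The spread was wide for some results, with an SD of 29.4 percentage points for the share of members overlapped by the other replicate. For the share of far lncRNA genes with a member peak, it was 3.46 points. Staying within such a spread therefore says little on stability. Whether the order against all peaks held under these settings was run for the signal ratio and the replicate ratio only. With 2 libraries, leaving 1 out moves a mean by a fixed part of their SD, so it says nothing on stability. The share of far lncRNA genes with a member peak in both libraries was 5.78%. With 1 library left out, which leaves the share with a member peak in the other, it ranged from 5.92% to 10.8%. It was 8.57% with the larger peak lists and 5.66% when peaks in repeats were left out. The share of lncRNA peaks with a footprint was 91.9% on average, 85.9% with the larger peak lists and 95.5% when both libraries were cut to equal numbers of their strongest peaks. The median signal relative to all peaks was 0.944, and it was 0.999 with a window of 500 bases and 0.905 with a distance of over 10000 bases from protein-coding start sites. The mean number of lncRNA peaks was 739.5, and 1076.5 with the larger lists, 551 with a window of 500 bases and 836 with gene ends in place of all transcript starts. Leaving out peaks of sequence in several copies, an alternative chosen after seeing the data, left 718.5. No paired analysis was possible because the series has 1 group. With 2 libraries of unknown depth, a site with no peak in replicate 2 is not shown to be closed there.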
